A study of Mus musculus with 9 samples.

Results

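The NAIP-NLRC4 inflammasome is an innate sensor of the cytosol: NAIP proteins bind flagellin and type III secretion proteins of bacteria, NLRC4 assembles on them, and caspase-1 is activated, which matures interleukin-1β and interleukin-18 and can kill the cell by pyroptosis. Dextran sodium sulfate (DSS) in the drinking water injures the colonic epithelium, and the colitis that follows is known for a heavy influx of Ly6C-high monocytes and neutrophils into the lamina propria. The comparison here asks how the cells recovered from the colon in DSS colitis differ between mice labelled Nlrc4 deficient and wild-type (WT) mice.

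The members are all cells of 2 single-cell libraries of CD11b+ colonic lamina propria cells, 1 from DSS-treated mice labelled Nlrc4 deficient and 1 from DSS-treated WT mice. They were chosen as barcodes with at most 15% mitochondrial (mt-) UMIs and at least 200 genes, which left 6698 cells of the Nlrc4-labelled library and 4162 cells of the WT library, 10860 of the 31759 cells kept in all 9 libraries of the series. Both groups were male C57BL/6 mice of 7 to 8 weeks, given 2.5% DSS for 7 days by the protocol common to the series, which also allows other doses. The number of mice behind a library, and whether the Nlrc4 mice and the WT mice were littermates, are not given in the sources used here. The other 7 libraries, none of them DSS-treated, are used only to show how far libraries lie apart: 2 of specific-pathogen-free (SPF) WT colon, 2 of germ-free colon, 1 of colon after antibiotics and 2 of WT small intestine. The SPF colon libraries serve as a yardstick, because they share every label, although they differed in the X-chromosome RNA Xist (values given below).

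With 1 library a side, genotype, mouse, cage, day and library preparation cannot be told apart, and no p-value is given. Intervals are 95% intervals, exact binomial for a share, exact Poisson for a sum of UMIs and a log-normal approximation for a ratio of shares. They cover counting error only. The Nlrc4-labelled library held 62900949 UMIs over kept cells with a median of 8358 per cell, against 28152684 UMIs and a median of 4323 in the WT library. The other 7 libraries kept 1450 to 5470 cells each. Of the kept barcodes, 7 were shared by both DSS libraries. A doublet caller marked 92 cells of the Nlrc4-labelled library and 4 of the WT library.

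Nlrc4 itself does not check the label. It lies at chr17:74425438-74459142 on the minus strand (GRCm38), which part of it was deleted is not given in the sources used here, and a 3′ tag outside the deleted part tests nothing. Over all kept cells it had 1254 UMIs or 19.9 CPM (UMIs of the gene per 1000000 UMIs) in the Nlrc4-labelled library and 304 UMIs or 10.8 CPM in the WT library, against 2.42 to 16.5 CPM in the other 7 libraries. In monocytes it stood at 36.9 CPM in the Nlrc4-labelled library and 17.3 CPM in the WT library, and in macrophages at 36.8 CPM in the Nlrc4-labelled library and 17.0 CPM in WT. Nlrc4 RNA was thus detected in the library labelled Nlrc4 deficient at a higher level than in WT, and that library is called the Nlrc4-labelled library throughout. The Naip genes, which encode the ligand-binding partners and lie together on chr13, were lower over all kept cells: Naip5 had 7.41 CPM in the Nlrc4-labelled library against 23.9 CPM in WT, and Naip6 had 3.39 CPM against 13.6 CPM. Naip1 had 18 UMIs against 286 UMIs in WT. In the other 7 libraries Naip5 ranged from 6.65 to 20.3 CPM, so WT lay above them and the Nlrc4-labelled library within their range. Naip6 ranged from 4.30 to 14.97 CPM there and Naip1 from 0.793 to 15.2 CPM. For Naip6 and Naip1 the Nlrc4-labelled library, with 0.286 CPM of Naip1, lay below the range and WT within it. The SPF libraries themselves had 12.4 CPM and 1.29 CPM of Naip1. Epithelial-gated cells, given next, were scarcer in the Nlrc4-labelled library too, and their part in the Naip values was not tested. Within monocytes Naip5 was 12.1 CPM in the Nlrc4-labelled library and 36.0 CPM in WT, and Naip2 was 32.7 CPM and 50.7 CPM. Of the 10 inflammasome sensor genes with at least 20 UMIs in monocytes of both libraries together, Naip5, Naip6 and the DNA sensor gene Aim2 (17.2 CPM against 49.9 CPM in WT) were at least 2-fold lower and none was higher, where 5.78% of all monocyte genes were lower. The calls of Naip5 and Naip6 ended with TMM scaling (log2 ratios of -0.97 and -0.86, against -1.26 and -1.08 without it), and all 3 ended with 20 CPM in place of 5 as the added count (-0.80 for Naip5, -0.51 for Naip6 and -0.91 for Aim2).

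Cells were put into classes by a marker gate: the class whose top 4 markers were highest in a cell, with a score at least 5/4 of the next class's, and otherwise unassigned. The libraries differed by over 5-fold in several minor classes. Eosinophils (Siglecf, Ccr3) and epithelial cells (Epcam, Krt8) were scarce in the Nlrc4-labelled library, and so were erythrocytes, with 4 cells against 20 in WT, whereas fibroblasts (Col1a1, Dcn) were plentiful. Monocytes and dendritic cells took larger shares of the Nlrc4-labelled library, and neutrophils and T cells smaller ones, while lymphoid cells as a whole took almost the same share of both.

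Eosinophils made up 0.194% (interval 0.103% to 0.332%, 13 cells) of the Nlrc4-labelled library and 2.81% (2.33% to 3.36%, 117 cells) of the WT library. The WT share was 14.5 times the other (8.18 to 25.7), and in the 7 other libraries eosinophils took 0.256% to 9.37%, so the Nlrc4-labelled library had the smallest share of the 9. The untreated SPF libraries themselves differed 2.97-fold in this class. Epithelial cells made up 0.269% (0.159% to 0.424%, 18 cells) of the Nlrc4-labelled library and 7.83% (7.03% to 8.69%, 326 cells) of the WT library, against 0.903% to 21.6% in the others, and here the SPF libraries differed 6.55-fold. Fibroblasts went the other way, with 5.23% (4.70% to 5.79%, 350 cells) in the Nlrc4-labelled library and 0.985% (0.708% to 1.33%, 41 cells) in WT. That is a 5.30-fold difference (3.85 to 7.31) in a class in which the SPF libraries had 2.72% and 2.71%. The colon libraries without DSS had 2.69% to 4.97%, and the small intestine libraries had 0.465% and 0.768%. Among colon libraries, the WT DSS share thus lay below all those without DSS, and the Nlrc4-labelled share just above them. Eosinophils carry CD11b, whereas epithelial cells and fibroblasts do not, and the labels name only CD11b for the sort. Whether the DSS libraries were also gated on CD45, as the study describes for other groups, is not given in the sources used here.

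Monocytes made up 29.0% (27.9% to 30.1%, 1944 cells) of the Nlrc4-labelled library and 20.7% (19.4% to 21.9%, 860 cells) of the WT library, and both lay above the 0.841% to 13.3% of the libraries without DSS. Their share was thus 1.40 times as large (1.31 to 1.51), which is less than the 1.70-fold gap between the SPF libraries, and it depended on how cells were classed. When cells were named by joint clusters instead, the log2 ratio of the monocyte share turned to -0.31, because an unnamed cluster of Saa3, Nos2, Inhba and Il1a cells (cluster 3), with 1324 cells of the Nlrc4-labelled library and 28 of WT, then falls outside the class. Thinning every cell to 500 UMIs brought the log2 ratio to 0.09. Monocytes and macrophages together took 35.8% of the Nlrc4-labelled library and 28.4% of WT, a 1.26-fold difference (1.19 to 1.34). Macrophages alone took 6.79% (6.20% to 7.42%, 455 cells) and 7.74% (6.94% to 8.59%, 322 cells), and the interval of their log2 ratio, -0.39 to 0.01, included 0. With joint clusters they took 1.51% of the Nlrc4-labelled library and 4.47% of WT (log2 ratio -1.57), and with all barcodes the log2 ratio was 0.12.

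Dendritic cells made up 15.9% (15.02% to 16.8%, 1064 cells) of the Nlrc4-labelled library and 6.87% (6.12% to 7.68%, 286 cells) of the WT library, a 2.31-fold difference (2.04 to 2.62). Here it was the WT DSS library that stood apart, because the 7 libraries without DSS had 12.5% to 27.0%. Neutrophils made up 5.94% (5.39% to 6.54%, 398 cells) of the Nlrc4-labelled library and 9.32% (8.46% to 10.2%, 388 cells) of WT, against 0.603% to 6.71% elsewhere, so the WT DSS library had the largest share of the 9. T cells took 6.09% (408 cells) of the Nlrc4-labelled library and 10.2% (423 cells) of WT, B cells 9.56% (640 cells) and 6.01% (250 cells), plasma cells 3.99% (267 cells) and 3.75% (156 cells), and natural killer (NK) and innate lymphoid cells 2.54% (170 cells) and 3.05% (127 cells). Summed, lymphoid cells took 22.2% (21.2% to 23.2%) of the Nlrc4-labelled library and 22.97% (21.7% to 24.3%) of WT. Unassigned cells took 13.7% of the Nlrc4-labelled library and 19.7% of WT. Of these, 794 cells of the Nlrc4-labelled library and 730 of WT had a score of at least 0.1 but fell short of the lead the gate asks for. Some of them may also have had too few detected markers. Another 596 and 437 cells, which were assigned, had a lead just past it.

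**Figure D1:**
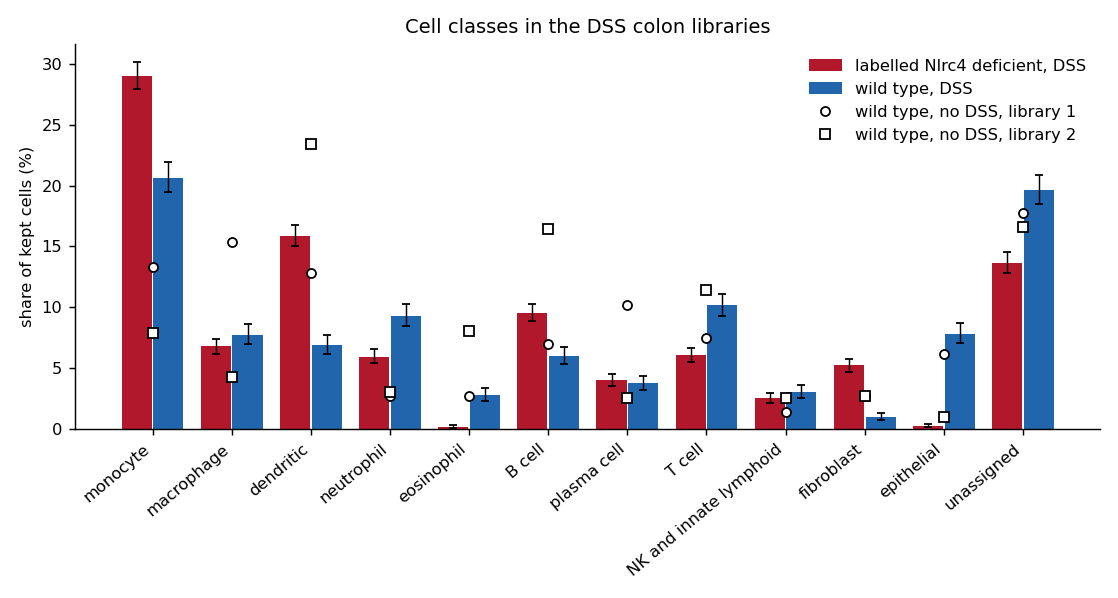
Share of kept cells (%, linear axis from 0) in each marker-gated class, for the library labelled Nlrc4 deficient (red bars) and the WT library (blue bars), both from DSS-treated mice, with exact 95% binomial intervals, and for the 2 SPF colon libraries (circles and squares). Eosinophils stand at 0.194% in the Nlrc4-labelled library and 2.81% in WT, and fibroblasts at 5.23% in the Nlrc4-labelled library and 0.985% in WT.

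For gene levels, UMIs were summed over the cells of a class in each library and given as CPM of that class total. Genes with at least 20 UMIs over both libraries were compared by log2((CPM in the Nlrc4-labelled library + 5)/(CPM in WT + 5)), which understates the change of low genes, and a gene counts as higher or lower when it is at least 2-fold apart on that scale. Genes that the gate uses are given as levels only and are no finding, which holds below for Ly6c2, S100a8, S100a9, Csf3r, Cxcr2, Camp, Ltf, Mertk, the C1q genes, Fscn1, Ccl22, Ccl17, Igha, Cd4, Cd8a, Il22, Col3a1 and the epithelial markers. The same holds for Ccr7 and Cacnb3 in dendritic cells and for Acta2 and Tagln, which the gate uses for the smooth muscle and glia class. In sums of this kind, fewer expressing cells and less RNA per cell cannot be told apart. The 2 SPF libraries were compared with each other by the same rule, among their own genes that passed the minimum. Those genes were fewer in every class, and cell numbers differed too. In this pair NK and innate lymphoid cells had 3842 genes and 36 and 61 cells, and neutrophils 2127 genes and 71 and 73 cells. The part of counting error in these percentages was not tested, so they are a rough scale only.

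In monocytes of the Nlrc4-labelled library the alarmin Il1a, the neutrophil chemokines Cxcl1, Cxcl2 and Cxcl3, the protease inhibitor Slpi and the heme oxygenase Hmox1 were higher than in WT monocytes. Srxn1, Gclm, Slc7a11 and Prdx1, which act in glutathione and peroxide metabolism, were higher too. The immediate-early factors Fos, Egr1 and Nr4a1, several type I interferon-response genes and the granulocyte gene Retnlg were lower. Of 10997 genes, 212 (1.93%) were at least 2-fold higher and 636 (5.78%) at least 2-fold lower. In either direction that is 7.71%, beside 7.17% of 8115 genes between the 2 untreated SPF libraries. The median log2 ratio of all genes was -0.24, and with TMM scaling, which sets that median near 0, the split became 430 higher and 288 lower.

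Il1a, an interleukin-1 family cytokine that dying and activated cells release, had 742 CPM in monocytes of the Nlrc4-labelled library and 68.0 CPM in WT monocytes, with 10.95 to 164 CPM in the other 7 libraries. The Nlrc4-labelled library thus lay above all 8 others, with a log2 ratio of 3.35. After thinning each cell to 2000 UMIs, 51.7% of its monocytes had an Il1a UMI against 9.12% of WT monocytes (71.6% and 16.9% unthinned, at medians of 9694 and 5870 UMIs). Among lymphocytes thinned to 1000 UMIs, an Il1a UMI was found in 0.789% of B cells of the Nlrc4-labelled library and 0.823% in WT (3.44% and 1.2% unthinned, at medians of 4936 and 3562 UMIs). In T cells it was 2.27% of 397 cells in the Nlrc4-labelled library and 0% of 416 in WT, with an exact interval up to 0.883% (4.41% and 0% unthinned, at medians of 4810 and 5737 UMIs), so the background in T cells differed too. Il1b, whose product caspase-1 matures, had 8122 CPM in the Nlrc4-labelled library against 3724 CPM in WT (log2 ratio 1.12, and 0.94 with classes from joint clusters), and the decoy receptor gene Il1r2 had 136 CPM against 493 CPM. Of the 9 interleukin-1 system genes that passed the minimum, Il1a and Il1b were higher and Il1r2 lower, with a median log2 ratio of 0.33.

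Cxcl1, a ligand of CXCR2 that draws in neutrophils, had 2094 CPM in the Nlrc4-labelled library and 258 CPM in WT, against 162 to 1161 CPM elsewhere. Cxcl2, another such ligand, had 19919.5 CPM against 4603 CPM in WT. The granulocyte growth factor gene Csf3 had 161 CPM against 42.5 CPM. Of the 7 neutrophil chemokine and receptor genes measured, the 4 ligands and growth factors Cxcl1, Cxcl2, Cxcl3 and Csf3 were higher. The 3 receptors Cxcr2, Cxcr4 and Csf3r had lower levels, but Cxcr2 and Csf3r are neutrophil gate markers and no finding. Of all monocyte genes, 1.93% were higher and 5.78% lower. Among 16 inflammatory cytokine genes, 6 were higher (Tnf, Il6, Il12a, Lif, Inhba and Areg) and none was lower, with a median log2 ratio of 0.58 beside -0.24 for all genes. Il6, an acute-phase cytokine, had 263 CPM in the Nlrc4-labelled library and 80.4 CPM in WT. The libraries without DSS had 89.7 to 428 CPM of Il6, which takes in the value of the Nlrc4-labelled library and lies above that of WT. Inhba, which encodes the activin A subunit, had 514 CPM against 174 CPM and lay above all other libraries.

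Of 15 genes of monocyte and eosinophil chemokines and receptors, 4 were higher and 3 lower, with a median log2 ratio of 0.05. Among the higher ones, Ccl3 had 1327 CPM against 355 CPM in WT, and Ccl4 had 2778 CPM against 753 CPM. Ccl24, an eosinophil attractant, had 94.3 CPM (1776 UMIs) in the Nlrc4-labelled library and 1.91 CPM (10 UMIs) in WT, and had the largest log2 ratio of the named monocyte genes, 3.85. The other libraries ranged from 4.15 to 252 CPM, so that the WT DSS value was the lowest of the 9. The anti-inflammatory cytokine Il10 was higher as well, with 704 CPM in the Nlrc4-labelled library against 167 CPM in WT. It too was lowest in WT DSS, since the libraries without DSS had 181 to 1102 CPM.

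Of 11 iron and heme genes, Hmox1, Fth1 and Ftl1 were higher and the transferrin receptor gene Tfrc lower, with a median log2 ratio of -0.07. Hmox1, which breaks down heme, had 2730.3 CPM in the Nlrc4-labelled library and 348 CPM in WT, against 252 to 1864 CPM in the others. At 2000 UMIs a cell, 91.6% of monocytes in the Nlrc4-labelled library and 37.8% in WT had an Hmox1 UMI (96.1% and 55.7% unthinned), at the medians given above. In lymphocytes thinned to 1000 UMIs the shares were lower but differed as well, with 6.05% of T cells in the Nlrc4-labelled library and 2.88% in WT, and 9.31% of B cells in the Nlrc4-labelled library and 0% of 243 in WT (interval up to 1.51%). Unthinned they were 24.0% and 9.22% in T cells and 25.8% and 5.60% in B cells. The ferritin genes Fth1 and Ftl1, which store iron, had log2 ratios of 1.16 and 1.27. Srxn1, a sulfiredoxin, had 248 CPM against 33.5 CPM in WT, and Gclm, a subunit of the enzyme that starts glutathione synthesis, had 128 CPM against 16.4 CPM. Slc7a11, the cystine importer, had 2577 CPM against 537 CPM, and the peroxiredoxin Prdx1 had 2109 CPM against 431 CPM. For Srxn1, Gclm and Prdx1 the Nlrc4-labelled library was above all 8 others, while WT was within the range of the libraries without DSS for Gclm and Prdx1 and below it for Srxn1.

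Promoters of genes that were higher together are shown because Cxcl1 is a textbook target of NF-kB and Gclm of the antioxidant response. Of the 10 genes with the largest ratios in monocytes, 7 had an entry among RefSeq promoters of build GRCm38.p6, each from 250 bases before to 50 bases after the start. The NF-kB motif GGANTTTCC, searched on both strands, occurs in 412 of 32851 such windows (1.254%) and in 1 of the 7, and the antioxidant response motif TGACNNNGC in 4071 (12.4%) and in 2 of the 7 (Gclm and Srxn1). The searched motifs do not overlap each other in these windows. Capitals mark the motif match, which lies 70 bases before the start on the plus strand in Cxcl1 (chr5:90890995-90891294, plus strand) and 134 bases before the start on the minus strand in Gclm (chr3:122245307-122245606, plus strand). A match is a description of the letters and not evidence of binding.
Cxcl1: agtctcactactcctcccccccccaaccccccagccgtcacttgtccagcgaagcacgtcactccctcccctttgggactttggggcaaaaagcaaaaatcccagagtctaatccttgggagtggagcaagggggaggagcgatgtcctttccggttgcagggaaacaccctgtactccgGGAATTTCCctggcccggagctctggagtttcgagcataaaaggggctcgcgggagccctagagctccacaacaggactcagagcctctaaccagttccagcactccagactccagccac
Gclm: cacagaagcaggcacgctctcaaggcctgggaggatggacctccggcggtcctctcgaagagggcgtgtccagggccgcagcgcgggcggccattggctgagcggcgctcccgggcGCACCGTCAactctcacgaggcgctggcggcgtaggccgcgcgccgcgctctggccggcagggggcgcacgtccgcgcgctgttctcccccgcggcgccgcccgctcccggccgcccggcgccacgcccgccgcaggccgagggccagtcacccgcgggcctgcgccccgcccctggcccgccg

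Slpi, an inhibitor of neutrophil elastase, had 2925 CPM in the Nlrc4-labelled library and 373 CPM in WT, with 76.7 to 1061 CPM elsewhere. Saa3, an acute-phase serum amyloid gene, was high in both DSS libraries, with 2817 CPM in the Nlrc4-labelled library and 1583 CPM in WT, and only 3.38 to 127 CPM in the 7 libraries without DSS. Its difference between the DSS libraries (log2 ratio 0.83) fell short of 2-fold. Other genes higher in the Nlrc4-labelled library were the lysozyme gene Lyz2, with 8305 CPM against 3492 CPM in WT, the collagenase Mmp13, with 73.2 CPM against 7.05 CPM, and the endothelin receptor Ednrb, with 95.3 CPM against 7.05 CPM.

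Among the lower genes were immediate-early genes. Fos, an immediate-early transcription factor, had 249 CPM in the Nlrc4-labelled library and 1377 CPM in WT, and all 8 other libraries were at 721 CPM or more. Egr1 had 81.8 CPM against 372 CPM in WT, and Nr4a1 had 100.5 CPM against 445 CPM. Of 19 immediate-early and heat shock genes, 9 were lower and 0 higher, with a median log2 ratio of -0.32.

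Of 23 type I interferon-response genes, 7 were lower and 1 higher, with a median log2 ratio of -0.63. Ifi44 had 4.62 CPM in the Nlrc4-labelled library and 80.2 CPM in WT, the RNA-binding Ifit2 had 18.7 CPM and 80.8 CPM, and the signalling factor Stat2 had 39.3 CPM and 138 CPM. The member that was higher, Oasl1, had 461 CPM in the Nlrc4-labelled library against 139 CPM in WT. Between libraries without DSS, Ifi44 ranged from 0 to 101 CPM, the top value being 30 UMIs in 46 monocytes of the second small intestine library. The colon libraries without DSS had 0 to 27.9 CPM, so WT DSS lay above them and the Nlrc4-labelled library within their range. None of 12 MHC class II and costimulation genes was 2-fold apart.

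The granulocyte genes Retnlg and S100a9 were far lower in monocytes of the Nlrc4-labelled library. Retnlg had 1.49 CPM in the Nlrc4-labelled library against 181 CPM in WT. The libraries without DSS had 0 to 120 CPM of Retnlg, so WT DSS lay above all of them and the Nlrc4-labelled library inside their range. S100a9 had 19.6 CPM in the Nlrc4-labelled library against 163 CPM in WT, whereas its partner S100a8 had 121 CPM against 127 CPM. Over the neutrophil marker list, 3 of 14 measured genes were higher and 6 lower in monocytes, with summed levels of 1490 CPM and 1735 CPM. The neutrophil class, 5.94% and 9.32% of cells, moves with them. So does the eosinophil class, 0.194% and 2.81% of cells, in which Retnlg had 8899 CPM in WT. The part of either class in these values was not tested. Ly6c2, a marker of classical monocytes, had 742 CPM in the Nlrc4-labelled library and 1936 CPM in WT.

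Different clusters held most of the monocyte gate in the 2 libraries. Of 1944 monocytes in the Nlrc4-labelled library, 1131 lay in cluster 4 (Chil3, Lyz2, Csf3, Slpi) and 613 in cluster 3 (Saa3, Nos2, Inhba, Il1a). Of 860 WT monocytes, 650 lay in cluster 1 (Ccr2, Ly6i, Retnla), 28 in cluster 4 and 22 in cluster 3. With 1 library a side, a cluster made mostly of 1 library may be that library rather than a cell state. Of the monocyte genes above, Il1b fell short of 2-fold and S100a9 reversed to a log2 ratio of 1.09 when the class was taken as clusters 1 and 4.

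**Figure D2:**
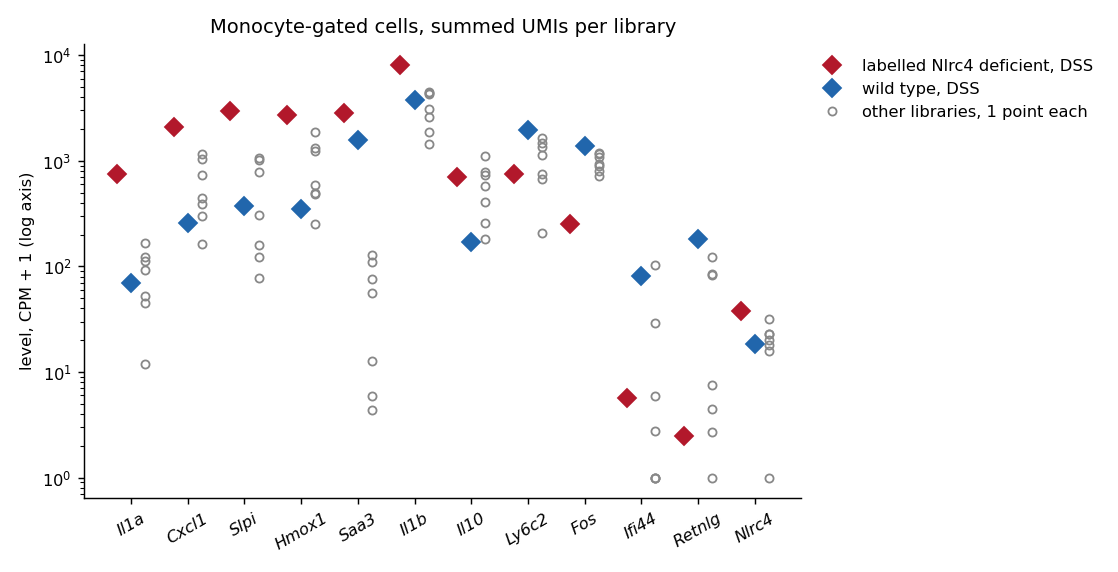
Level of 12 genes in monocyte-gated cells (CPM + 1, log axis), with the Nlrc4-labelled library as a red diamond, the WT DSS library as a blue diamond and each of the 7 other libraries as a grey circle. Il1a at 742 CPM and Slpi at 2925 CPM lie above every other library and Fos at 249 CPM below every other, while Saa3 is high in both DSS libraries.

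Macrophages of the Nlrc4-labelled library showed the same direction for Il1a, Cxcl1, Slpi and Il6, and further genes of inflammatory macrophages were higher (Inhba, Nos2, Spp1). The gate marker Mertk, a receptor for dying cells on resident macrophages, had a lower level. Of 8869 genes, 288 (3.25%) were higher and 897 (10.1%) lower, together 13.4% against 5.79% between the SPF libraries. With TMM scaling the counts were 538 and 431, and the median of all genes was near 0 in place of -0.25. As in monocytes, the gate drew on different clusters, with 323 of 455 macrophages of the Nlrc4-labelled library in cluster 3, and 161 of 322 WT macrophages in cluster 8.

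Il1a had 649.6 CPM in macrophages of the Nlrc4-labelled library and 34.7 CPM in WT, with 51.8 to 277 CPM elsewhere. Spp1, the osteopontin gene, had 279 CPM against 15.5 CPM in WT. Slpi had 903 CPM against 66.4 CPM and at most 67.5 CPM in any other library. For Il1a, Spp1 and Slpi the Nlrc4-labelled library was above all 8 others. Nos2, the inducible nitric oxide synthase, had 175 UMIs or 45.3 CPM in the Nlrc4-labelled library, 8 UMIs or 5.90 CPM in WT, and 0 to 1.14 CPM in the libraries without DSS. Il6 had 137 CPM against 18.4 CPM in WT, and Il23a, a subunit of IL-23, had 70.2 CPM against 16.2 CPM. Of 14 inflammatory cytokine genes, 9 were higher and 0 lower, with a median log2 ratio of 1.11. Cxcl1 had 2478 CPM against 238 CPM, but the second SPF library reached 2546 CPM without DSS. Inhba, at 385 CPM against 54.6 CPM, and Met, the hepatocyte growth factor receptor, at 77.7 CPM against 8.11 CPM, reversed with classes from joint clusters to log2 ratios of -1.29 and -0.13. That setting also ended the calls of Slpi (0.16), Nos2 (0), Il23a (0.81), Il1b (0.20), Fos (-0.59), Fth1 and Txnip, so these macrophage values rest on the gate, which takes in cluster 3.

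On the lower side, Mertk had 8.55 CPM in the Nlrc4-labelled library and 50.9 CPM in WT, below the 35.9 to 121 CPM of the others. Hes1, a Notch target, had 24.3 CPM against 234 CPM in WT. Fos had 392 CPM against 1255 CPM. The neutrophil gene S100a8 had 17.6 CPM against 162 CPM.

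Dendritic cells differed in fewer genes. Hmox1, Slc7a11, Srxn1 and the microRNA host gene Mir155hg were higher in the Nlrc4-labelled library, and interferon-response genes were lower. The levels of some gate markers of mature, migrating dendritic cells (Fscn1, Ccl22, Ccl17) were lower too, but another, Ccr7, was found in a larger share of cells. Of 10756 genes, 97 (0.902%) were higher and 278 (2.58%) lower, together 3.49% against 1.98% between the SPF libraries. TMM scaling gave 165 higher and 154 lower.

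Hmox1 had 444 CPM in dendritic cells of the Nlrc4-labelled library and 23.3 CPM in WT, with 45.8 to 181 CPM elsewhere. Mir155hg had 181 CPM against 25.6 CPM in WT, and Slc7a11 had 911 CPM against 179.9 CPM. In all 3 genes the Nlrc4-labelled library was the highest of the 9. Fdps, an enzyme of the mevalonate pathway to cholesterol, had 127 CPM against 27.2 CPM. Of 23 interferon-response genes, 8 were lower and 0 higher, with a median log2 ratio of -0.89 against -0.13 for all genes. Ifi44 had 5.37 CPM in the Nlrc4-labelled library and 42.7 CPM in WT, where the libraries without DSS had at most 5.95 CPM. Usp18, which damps interferon signalling, had 13.7 CPM against 51.8 CPM. For both genes the value that lay outside the range of the libraries without DSS was that of WT.

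Of 16 maturation genes, 5 were lower and 0 higher, and 4 of the 5 are gate markers (Fscn1, Ccl17, Ccl22 and Cacnb3). At 2000 UMIs a cell, a UMI of Fscn1, Cacnb3 or Ccl22 was found in 17.6% of dendritic cells in the Nlrc4-labelled library and 25.7% in WT. The gate marker Ccr7 went the other way, with 63.8% in the Nlrc4-labelled library and 45.8% in WT (83.3% and 57.0% unthinned, at medians of 13626 and 10316 UMIs). Fscn1, an actin-bundling protein, had 71.2 CPM in the Nlrc4-labelled library against 279 CPM in WT. Ccl22 and Ccl17, ligands of CCR4, had 149 CPM and 47.4 CPM against 430.4 CPM and 116 CPM. For Fscn1 and Ccl17 both DSS libraries were within the range of libraries without DSS, whereas for Ccl22 the Nlrc4-labelled library was the lowest of the 9. With classes from joint clusters Ccl22 (log2 ratio -0.30) and Ccl17 (-0.38) were less than 2-fold apart. Neutrophil RNA moved with the class, as S100a8 had 9.32 CPM in the Nlrc4-labelled library and 99.0 CPM in WT, and its part was not tested.

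Neutrophils of the Nlrc4-labelled library had more Hmox1, Gclm and Il1a. They had less of Fos, of the chemokine receptors Cxcr2 and Cxcr4, and of MHC class II genes. Of 6045 genes, 167 (2.76%) were higher and 1274 (21.1%) lower, together 23.8% against 15.8% between the SPF libraries. The median of all genes was -0.51, the furthest from 0 of the classes, and TMM scaling gave 534 higher and 412 lower. Neutrophils carry little RNA, with totals of 1450027 UMIs in the Nlrc4-labelled library and 1136638 UMIs in WT.

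Hmox1 had 4425 CPM in neutrophils of the Nlrc4-labelled library and 423 CPM in WT, with 361 to 1672 CPM elsewhere. Gclm had 323 CPM against 15.8 CPM, and Il1a had 1149 CPM against 153 CPM. The Nlrc4-labelled library was above all 8 others for Hmox1, Gclm and Il1a. Camp, the cathelicidin gene, had 233 UMIs or 161 CPM against 19 UMIs or 16.7 CPM in WT, and Ltf, the lactoferrin gene, had 106 CPM against 12.3 CPM. Both values of the Nlrc4-labelled library lay within the range of the others, which reached 556 CPM for Camp. Camp and Ltf are granule genes of immature neutrophils, and few cells carried them, with a Camp UMI in 0.503% of neutrophils of the Nlrc4-labelled library and 1.03% in WT at 500 UMIs a cell (3.02% and 2.32% unthinned, at medians of 3245 and 2545 UMIs). No order is read from these shares. Saa3 had 1299 CPM in the Nlrc4-labelled library and 209 CPM in WT, and was less than 2-fold apart with classes from joint clusters (log2 ratio 0.88).

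Cxcr2, the receptor that leads neutrophils out of the marrow, had 304 CPM against 988 CPM, and Cxcr4, which marks aged neutrophils, had 206 CPM against 701 CPM. For Cxcr4 the Nlrc4-labelled library was the lowest of the 9. Of 11 MHC class II and costimulation genes, 10 were lower and 0 higher, with a median log2 ratio of -1.69. H2-Aa had 281 CPM in the Nlrc4-labelled library and 1349 CPM in WT, and 109.9 to 415 CPM in the libraries without DSS, so that WT DSS stood above all. Macrophage markers moved in the same direction in this class, with 5 of 7 measured markers lower, among them the complement genes C1qa, C1qb and C1qc, and summed levels of 194 CPM and 539 CPM, and their part in the class II values was not tested.

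The 13 eosinophils of the Nlrc4-labelled library are too few for a comparison of genes, and counts are given as they are. Ccr3, the eotaxin receptor, had 20 UMIs in the Nlrc4-labelled library and 187 UMIs in the 117 eosinophils of WT. Siglecf had 0 UMIs against 25 UMIs, and the lipoxygenase Alox15 had 8 UMIs against 82 UMIs. Despite the smaller number of cells, Hmox1 had 84 UMIs in the Nlrc4-labelled library and 11 UMIs in WT, and the myeloid genes Cd14 and Lyz2 had 29 UMIs and 44 UMIs against 4 UMIs and 11 UMIs. Over all kept cells, Ccr3 had 2.08 CPM in the Nlrc4-labelled library and 23.2 CPM in WT, against 2.46 to 56.2 CPM in the others.

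B cells of the Nlrc4-labelled library had more RNA of switched IgG heavy chains than WT B cells, and fewer transcripts of interferon-response and cell cycle genes. Of 8749 genes, 193 (2.21%) were higher and 359 (4.1%) lower, together 6.31% against 5.54% between the SPF libraries. TMM scaling gave 230 and 293. The constant region gene Ighg1 (chr12:113325240-113330523) had 695 UMIs in B cells of the Nlrc4-labelled library and 0 UMIs in WT, at least 64.3-fold higher when the floor of 3 UMIs per library is set against it. The other libraries had 6.95 to 93.8 CPM beside 179 CPM here, so both DSS libraries lay outside their range. Ighg1 was the leading heavy chain in 34 of 640 B cells (5.31%) of the Nlrc4-labelled library and 0 of 250 in WT, and Ighg2b in 57 and 3 cells.

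Of 18 interferon-response genes, 11 were lower in B cells and 0 higher, with a median log2 ratio of -1.18 beside -0.07 for all genes. Irf7, the transcription factor of the interferon response, had 9.26 CPM in the Nlrc4-labelled library against 103 CPM in WT. Rtp4 had 2.57 CPM against 37.1 CPM, and the antiviral Rsad2 had 11.1 CPM against 50.9 CPM. In Irf7, Rtp4 and Rsad2 the WT DSS library was the highest of the 9, and the Nlrc4-labelled library lay within the range of the libraries without DSS for Irf7 and Rtp4 and just above it for Rsad2. Of 14 cell cycle genes, 8 were lower and 0 higher, among them Mki67 with 18.0 CPM against 68.5 CPM, whose log2 ratio was -0.12 with classes from joint clusters.

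Plasma cells were mostly IgA cells in both libraries. Igha was the leading heavy chain in 250 of 267 plasma cells (93.6%, interval 90.0% to 96.2%) of the Nlrc4-labelled library and in 148 of 156 (94.9%) of WT. The rest differed in class, since Ighg1 led in 12 plasma cells of the Nlrc4-labelled library and in 0 of WT, while Ighm led in 0 and 5 cells. Of 9089 genes, 79 (0.869%) were higher and 253 (2.78%) lower, and the total of 3.65% was below the 7.62% between the SPF libraries. TMM scaling gave 101 and 193.

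Ighg1 had 4303 CPM in plasma cells of the Nlrc4-labelled library and 6.96 CPM in WT, while 6 other libraries with at least 20 plasma cells had 0.789 to 1383 CPM. The second germ-free library, left out there with 17 plasma cells, had 11225 CPM (2771 UMIs), above the Nlrc4-labelled library. Ighm had 48.0 CPM against 4487 CPM in WT, with 85.7 to 4052 CPM elsewhere, so that the DSS libraries stood at opposite ends. The λ light chain gene Iglc2 had 1081 CPM against 6772 CPM, and Iglc1 had 9512 CPM against 3784 CPM. Igha itself had 104666 CPM and 155738 CPM, less than 2-fold apart. Plasma cells of 1 clone share their chains, so cells are not independent counts of an isotype. Chgb, which encodes a secretory granule protein of endocrine cells, had 0 UMIs in the Nlrc4-labelled library and 271 UMIs in WT, where other libraries had at most 2.40 CPM.

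**Figure D3:**
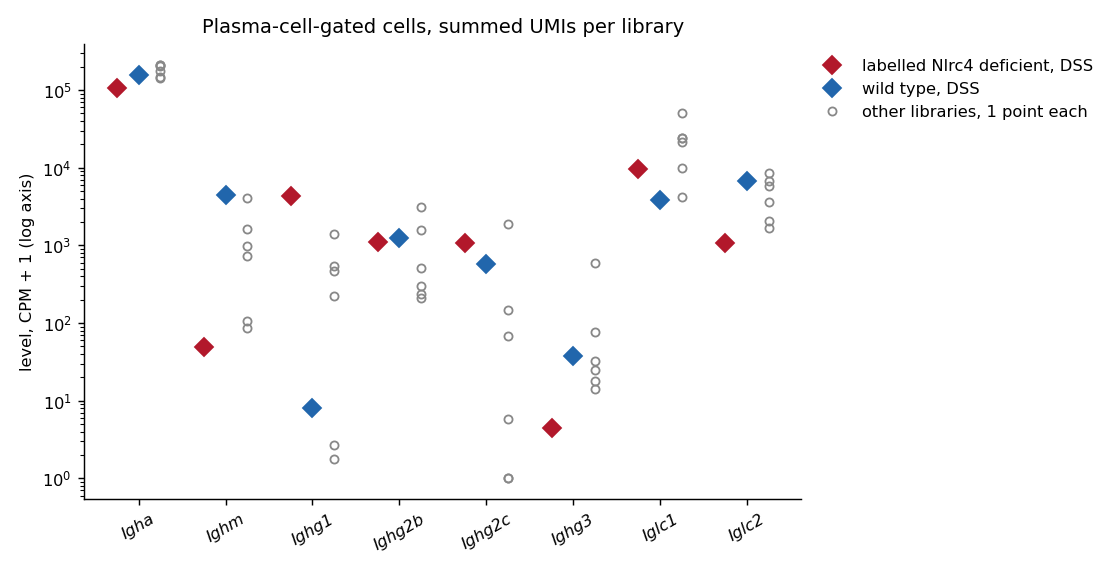
Level of 8 immunoglobulin constant genes in plasma-cell-gated cells (CPM + 1, log axis), with the Nlrc4-labelled library in red, WT DSS in blue and 6 other libraries in grey. The second germ-free library, with 17 plasma cells, is not shown. Ighg1 stands at 4303 CPM in the Nlrc4-labelled library and 6.96 CPM in WT, and Ighm at 48.0 CPM in the Nlrc4-labelled library and 4487 CPM in WT, while Igha is within 2-fold.

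The T cell class of the Nlrc4-labelled library carried fewer transcripts of dividing and cytotoxic cells than WT T cells, and more of myeloid genes. Of 9519 genes, 206 (2.16%) were higher and 555 (5.83%) lower, together 7.99%, below the 10.2% between the SPF libraries. TMM scaling gave 276 and 424. Of 15 cell cycle genes, 13 were lower and 0 higher, with a median log2 ratio of -1.98 beside -0.10 for all genes. Mki67, a marker of dividing cells, had 54.1 CPM in the Nlrc4-labelled library and 268 CPM in WT, and the replication enzyme Rrm2 had 18.2 CPM and 136 CPM. Of the gated T cells, 11 of 408 in the Nlrc4-labelled library and 124 of 423 in WT lay in cluster 19 (Gzmb, Hist1h2ap, Icos), so different clusters make up the class. For Mki67 and Rrm2 WT DSS was the highest of the 9 libraries, and the Nlrc4-labelled library lay within the range of those without DSS.

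Gzmb, the granzyme of cytotoxic T cells, had 384 CPM in the Nlrc4-labelled library against 1771 CPM in WT. Cd4 had 159 CPM against 138 CPM, and Cd8a had 88.6 CPM against 146 CPM, neither 2-fold apart. The type 17 cytokine Il17a had 126 CPM against 30.6 CPM, and Il17f had 27.9 CPM against 3.86 CPM. Both values of the Nlrc4-labelled library lay within the range of the libraries without DSS, which reached 228 CPM for Il17a, whereas the Il17f value of WT was below that range. About equal shares of T cells had an Il17a UMI, 2.02% in the Nlrc4-labelled library and 2.16% in WT at 1000 UMIs (3.68% and 3.07% unthinned).

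Of 12 MHC class II and costimulation genes, a set that mouse T cells make little of, 8 were higher in the T cell class of the Nlrc4-labelled library and 0 lower. Cd74 had 804 CPM against 113 CPM in WT, and the myeloid genes Il1b and Lyz2 had 509.7 CPM and 191 CPM against 49.9 CPM and 27.3 CPM. With called doublets removed the log2 ratios were 1.87 for Cd74 (2.78 with them), 1.99 for Il1b (3.23 with them) and 2.26 for Lyz2 (2.61 with them), and with classes from joint clusters Cd74 (0.68) and Lyz2 (0.96) were less than 2-fold apart. The T cell class of the Nlrc4-labelled library thus held more RNA of genes that other cells make, and its part in the other T cell values was not tested. The second SPF library had 1369.7 CPM of Cd74 in T cells, above the Nlrc4-labelled library.

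In NK and innate lymphoid cells the classes held 170 cells and 127 cells. Of 6767 genes, 251 (3.71%) were higher and 304 (4.49%) lower, together 8.2%, against 16.7% between the SPF libraries. Il22, the cytokine of group 3 innate lymphoid cells that drives epithelial repair, had 1303 UMIs in the Nlrc4-labelled library and 4 UMIs in WT, but these came from 2 of 170 cells and 1 of 127 cells. The inhibitory receptor gene Ctla4 had 25.6 CPM in the Nlrc4-labelled library against 269 CPM in WT, and the integrins Itga1 and Itgae, which mark tissue-resident cells, had 13.8 CPM and 2.95 CPM against 121 CPM and 50.4 CPM. Itgae ranged from 0 to 358 CPM in the other 6 libraries with at least 20 such cells. Hmox1 had 128 CPM against 6.72 CPM, and Lyz2 had 132 CPM against 19.0 CPM. Itgae reversed to a log2 ratio of 0.11 with classes from joint clusters, and Lyz2 was less than 2-fold apart with called doublets removed (0.77).

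Fibroblasts, 350 cells and 41 cells, are too few in WT for the rule by which other genes were named, and the genes here were chosen after their values were seen. Nrg1, Wnt4 and Sfrp2 were higher in the Nlrc4-labelled library, Pi16, Scara5, Dpep1 and Sfrp4 were lower, and the collagen gene Col3a1 was less than 2-fold apart. Of 9868 genes, 1160 (11.8%) were higher and 502 (5.09%) lower, together 16.8% against 9.72% between the SPF libraries. Acta2, smooth muscle actin, had 454 UMIs in the Nlrc4-labelled library against 2 UMIs in WT, and Tagln had 246 UMIs against 0 UMIs. Both are gate markers of the smooth muscle and glia class, so they are given as levels only. The growth factor Nrg1, which feeds crypt stem cells, had 254 UMIs against 0 UMIs, at least 9.06-fold higher. Wnt4 had 273 CPM against 24.8 CPM. The other libraries with at least 20 fibroblasts had 61.2 to 237 CPM of Wnt4, so WT lay below their range and the Nlrc4-labelled library above it. Sfrp2, a Wnt-binding protein, had 287 UMIs against 0 UMIs, at least 10.2-fold higher. Those other libraries had 0 to 71.9 CPM of Sfrp2 and 0 to 64.6 CPM of Nrg1. The Nlrc4-labelled library, with 109 CPM and 96.4 CPM, lay above both ranges, and WT at their low end. Myeloid RNA moved with the class, as Lyz2 had 248 CPM in the Nlrc4-labelled library and 24.8 CPM in WT and S100a8 had 112 CPM and 14.2 CPM, and smooth muscle and glia cells numbered 16 in the Nlrc4-labelled library and 3 in WT. Their part in the fibroblast values was not tested.

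On the lower side, several genes had their highest level in WT DSS. Pi16, a marker of adventitial fibroblasts, had 11.4 CPM in the Nlrc4-labelled library and 216 CPM in WT. Scara5 had 30.7 CPM against 429 CPM, the dipeptidase Dpep1 28.8 CPM against 599 CPM, the alarmin Il33 9.49 CPM against 191 CPM, and the stromelysin Mmp3 11.8 CPM against 142 CPM. Sfrp4 had 1 UMI against 106 UMIs. For Pi16, Scara5, Dpep1, Il33 and Sfrp4 the WT DSS library was the highest of the libraries with at least 20 fibroblasts. The lamina propria gene Adamdec1 had 4132 CPM and 3350.3 CPM, and Col3a1 6297 CPM and 7328 CPM, neither 2-fold apart. By joint clusters, fibroblasts fell into cluster 10, with 355 cells of the Nlrc4-labelled library and 19 of WT, and cluster 23, with 29 and 26.

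**Figure D4:**
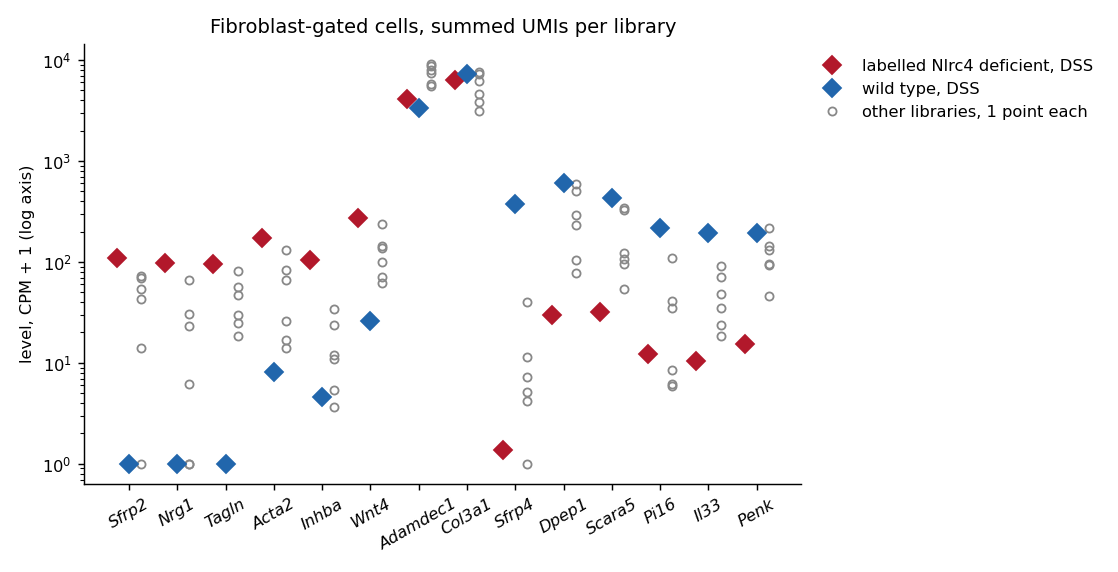
Level of 14 genes in fibroblast-gated cells (CPM + 1, log axis), with the Nlrc4-labelled library in red (350 cells), WT DSS in blue (41 cells) and 6 other libraries in grey. The first 6 genes are higher in the Nlrc4-labelled library, Adamdec1 and Col3a1 are within 2-fold, and the last 6 are lower. Tagln, Acta2 and Col3a1 are gate markers and are shown as levels only.

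Some genes moved in every class. Of 4774 genes that passed the minimum in all 9 classes, 2 were at least 2-fold higher in all 9 (Hmox1 and the non-coding gene Gm42031) and 3 were lower in all 9 (Gm47283, Lgals4 and Snhg9), while 11 were higher and 14 lower in at least 7 classes. Hmox1 (chr8:75093621-75100589) ranged in log2 ratio from 1.85 in fibroblasts to 3.99 in dendritic cells. Over all kept cells it had 1323 CPM in the Nlrc4-labelled library and 146 CPM in WT, with 68.2 to 307 CPM elsewhere. The level in T cells, 112 CPM and 12.95 CPM, was far under that in monocytes, and the share of it that is free RNA was not tested. Ubb, a ubiquitin gene, and Slpi were higher in 8 classes, and Cxcl2, Fth1, Il1a, Slc7a11, Bcl2a1b and Mir155hg in 7. Fos was lower in 8 of the 9 classes, the exception being fibroblasts, with 1440.5 CPM and 1415 CPM.

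Gm42031, a long intergenic RNA at chr8:85125872-85132289, had 188 CPM over all kept cells of the Nlrc4-labelled library and 7.28 CPM in WT, and 3.12 to 7.56 CPM in the 7 others. Gm47283, at chrY:90784738-90816464, had 0.382 CPM in the Nlrc4-labelled library and 137 CPM in WT, and 45.7 to 302 CPM in the others. Other genes of the Y chromosome did not show this, with Ddx3y at 126 CPM and 111 CPM and Uty at 27.1 CPM and 33.8 CPM. Both Gm genes thus set the Nlrc4-labelled library apart from all 8 other libraries whatever the cell class. Xist, an RNA of female cells, had 0.111 CPM in the Nlrc4-labelled library and 0.107 CPM in WT. The SPF libraries, labelled alike, had 0.0499 CPM and 19.6 CPM of Xist, and 147 CPM and 208 CPM of Ddx3y.

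The genes lower across classes included RNA of cells that these classes are not. The epithelial genes Lgals4, Krt8, Muc2, Car1, Pigr and Dmbt1 were lower in 8 or 9 classes, and Igha in 7. Over all kept cells, Car1, a colonocyte carbonic anhydrase, had 1.59 CPM in the Nlrc4-labelled library and 480.4 CPM in WT. In monocytes, 10 of 11 measured epithelial markers were lower, with summed levels of 16.4 CPM and 241 CPM, and 0 were higher. The SPF libraries themselves had 454 CPM and 1.83 CPM of Car1.

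**Figure D5:**
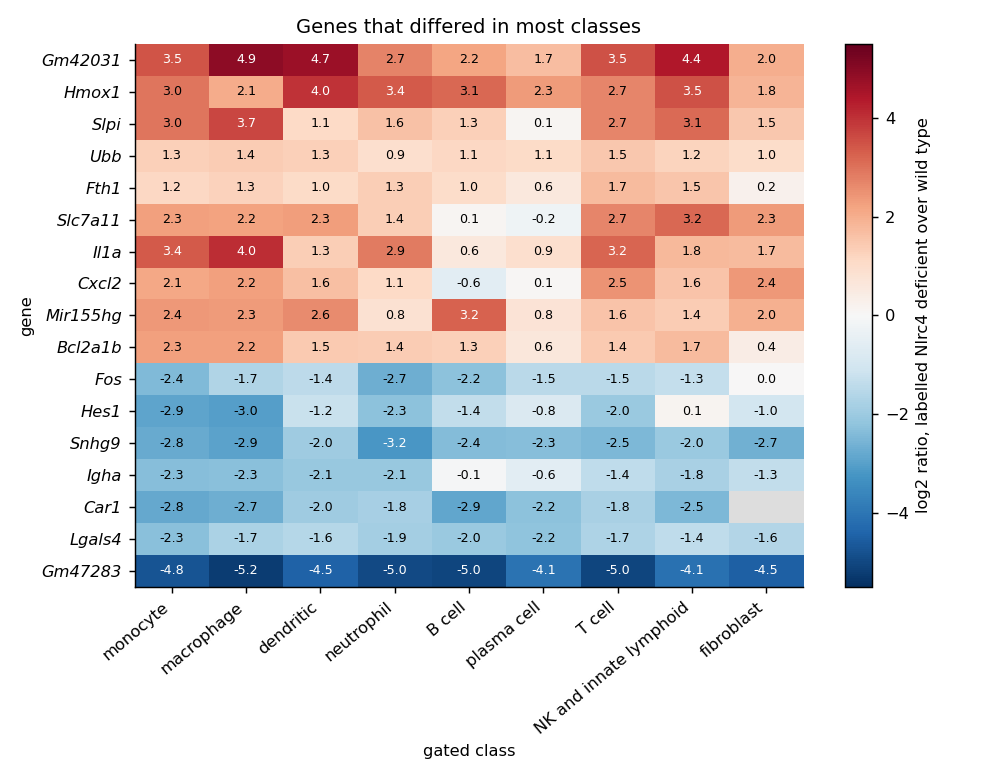
Log2 ratio of the Nlrc4-labelled library over WT, each with 5 CPM added, for 17 genes (rows) in 9 gated classes (columns), with red higher and blue lower in the Nlrc4-labelled library and grey where a gene missed the UMI minimum. Hmox1 and Gm42031 are red and Gm47283, Snhg9 and Lgals4 are blue in all 9 columns, while Il1a ranges from 0.59 in B cells to 4.05 in macrophages.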

How the data were processed

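Single cells sorted as CD11b+ were captured with 10x Genomics 3′ chemistry, and the authors deposited a matrix of UMI counts (31053 features by barcode), made against mm10 with Cell Ranger 3.0.2 (per the file headers), with no normalization. STAR 2.5.1b is named in the submitters' processing notes. Barcodes with at most 15% mt- UMIs and at least 200 genes were kept, doublets were called with Scrublet (scanpy 1.11.5) and not removed, and cells were classed by the marker gate, of which 12 markers were held out. A gate score of at least 0.1 and at least 2 detected markers were required. UMIs were summed per class and library. Joint clusters came from Seurat 5.3.0 under R 4.3.3 (2000 variable genes, 30 components, resolution 0.8), TMM factors from edgeR 4.0.16 and exact intervals from scipy 1.17.1. With 1 library a side no test was run. The computations were tested on simulated data.

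Named genes were, in each class with at least 50 cells in both libraries, the 10 largest log2 ratios each way among genes with at least 50 CPM in 1 library and 20 UMIs over both, without class markers, mt-, ribosomal, immunoglobulin variable and unnamed genes, and up to 4 members of each of 29 gene lists. Nlrc4, the Naip genes and class markers (as levels) were named too. Gm42031, Gm47283, Slc7a11 and Prdx1 in monocytes, the genes shared across classes, the members named beside a list's count and the genes of fibroblasts, eosinophils and all kept cells were chosen after their values were seen. Members and lists were chosen with earlier results of these data known. The other settings tried were other pseudocounts, UMI minimums, scalings, cell filters, class definitions and denominators.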

Additional observations from a re-analysis of the deposited data

How the results depend on the processing

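No paired analysis was possible because each side is 1 library. The log2 ratios of the shares of eosinophils, fibroblasts and epithelial cells kept their direction under every setting tried and moved by less than their counting interval. That of monocytes (0.49) was 0.64 with all barcodes, -0.31 with joint clusters, 0.087 with cells thinned to 500 UMIs, 0.30 over leukocytes and 0.37 with no lead in the gate, a setting added after the data were seen. That of macrophages (-0.19) was 0.12 with all barcodes, -1.57 with joint clusters and -0.39 thinned. That of dendritic cells was 0.60 thinned and 1.02 over leukocytes, that of neutrophils -1.03 with joint clusters, and that of lymphoid cells -0.18 at 10% mt- and 500 genes and -0.24 over leukocytes.

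Counts of genes at least 2-fold apart followed the pseudocount and the UMI minimum. With 1 CPM in place of 5 they were 1953 in monocytes, 1921 in macrophages, 1065 in dendritic cells, 1030 in B cells, 782 in plasma cells, 1391 in T cells and 860 in NK and innate lymphoid cells. With 20 CPM they were 327 in monocytes, 399 in macrophages, 113 in dendritic cells, 440 in neutrophils, 170 in B cells, 80 in plasma cells, 247 in T cells, 159 in NK and innate lymphoid cells and 544 in fibroblasts. With at least 100 UMIs they were 671 in macrophages, 475 in neutrophils, 289 in B cells, 157 in plasma cells, 489 in T cells, 165 in NK and innate lymphoid cells and 625 in fibroblasts, and with no minimum 870 in NK and innate lymphoid cells. TMM gave 946 in neutrophils, leaving out the 20 most abundant genes 568 in plasma cells, joint clusters 626 in dendritic cells and 2952 in neutrophils, and means over cells 644 in dendritic cells and 979 in plasma cells.

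Of 170 gene values at least 2-fold apart that were followed, 165 to 170 stayed so in the same direction under each of 10 settings, and 146 did under joint clusters. Joint clusters reversed 6, to 1.09 for S100a9 in monocytes, -1.29 for Inhba and -0.13 for Met in macrophages, 0.060 for Cd200 in dendritic cells, -0.17 for Il22 in T cells and 0.11 for Itgae in NK and innate lymphoid cells. Unnamed clusters fall outside every class in that setting, among them cluster 3 (Inhba), cluster 18 (Ccl22, Cd200) and cluster 20 (Il22). Their part in these reversals was not tested. Depth limits the eosinophils and, by UMI totals in WT, the 41 fibroblasts (282065), the NK and innate lymphoid cells (893385) and the neutrophils (1136638).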

Other observations

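Over all kept cells, 12 genes of the Nlrc4-labelled library were at least 4-fold above each of the 8 other libraries and 5 were at least 4-fold below. Besides Il1a, Slpi, Cxcl1, Spp1, Ccl24, Hmox1, Gm42031 and Inhba, the higher genes were Msantd3, the transcription factor gene Tfec, the arginine transporter gene Slc7a2 and Kctd19. Tfec had 53.6 CPM in the Nlrc4-labelled library and 12.2 CPM in WT, and Slc7a2 had 20.4 CPM and 2.52 CPM. Besides Gm47283, the lower genes were the goblet and Paneth-type genes Clca1, Fcgbp, Zg16 and Ang4. Zg16 had 0.477 CPM in the Nlrc4-labelled library and 311 CPM in WT, and Ang4 had 0 UMIs against 9.27 CPM in WT. Epithelial-gated cells, 18 and 326, move with these genes.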
